A study of Ovis aries with 24 samples.

Results

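The supraspinatus (SS), a shoulder muscle, was compared with the longissimus dorsi (LD), the long muscle of the back, in wild-type lambs. Both groups carry genotype NN at the callipyge locus and were sampled at T12, 11 to 12 weeks of age, with no treatment. T12 labels also carry the word birth, and the age was taken from the title's code and the age field. The comparison rests on 4 of the 24 arrays, 2 for each muscle. It covers 5399 of the 24128 probe sets on the array, those with a signal of 200 or more on both arrays of at least one muscle. Of these, 4479 reached that level in both muscles, 536 in SS only and 384 in LD only.

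One aim of the study was to separate transcripts of the muscle enlargement in callipyge sheep from those of fibre type. RNA from 12 groups of muscle was hybridised to a bovine Affymetrix GeneChip, in which each gene is read by 1 or more sets of short probes. Besides these muscles, LD of genotypes CC, CN and NC, SS of genotype CN (the paternal heterozygote) and the NN hind-limb muscles coded SM and ST were measured at T12, and LD of all 4 genotypes at T0, within 5 days of birth. The labels give conflicting muscle names for SM, so its code is kept.

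The animals came from a flock of Dorset, Suffolk and Rambouillet crosses. Both arrays of a muscle are technical replicates by their labels, so each muscle is 1 value. The protocols describe LD of 8 male lambs, 4 per genotype, but do not say how many animals stand behind an array or whether SS and LD came from the same lambs. The level of 1 animal or pool and the level of a muscle cannot be told apart here.

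Skeletal muscle is built of fibres that differ in the isoforms of myosin, troponin and calcium pump they use and in their fuel. Slow fibres contract for long periods and burn fatty acids and lactate in their mitochondria, while fast fibres break down glycogen and glucose and export lactate. Muscles also keep a record of the body region they formed in, through transcription factors of the HOX and PITX families. The supraspinatus holds the shoulder joint while an animal stands and walks, and the longissimus dorsi is a large, mostly fast muscle of the trunk. In bulk RNA, fewer fibres of a type and less RNA per fibre cannot be told apart.

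Values are MAS5 signals, the brightness of a probe set after background and mismatch correction. Array medians were 53.2 to 59.4 on the 4 arrays and the highest signals were 36320 to 43226.3. Log2 signals of the 5399 probe sets correlated with r = 0.983 between the SS arrays, 0.978 between the LD arrays and 0.928 to 0.935 between muscles. Arrays of the same muscle differed 2-fold or more at 0.871% of probe sets in SS and 1.09% in LD. Muscle RNA was checked with its defining markers: the skeletal actin ACTA1 had 32274.8 and 33838.3 in SS and 37617.7 and 30232.1 in LD. As a sign of RNA quality, the 3′ over the 5′ control probe set of GAPDH gave a log2 ratio of 0.0244 and 0.0583 in SS and 0.187 and 0.246 in LD, so it moved with the muscle in NN, and its part in the results was not tested. In CN it overlapped between the muscles (−0.0273 and 0.0867 in SS, −0.0332 and 0.0849 in LD). The same ratio of the actin control overlapped in NN, with 0.127 and 0.0881 in SS and 0.203 and 0.0371 in LD.

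Differences are log2 SS minus log2 LD of the mean of both arrays, with signals under 50 set to 50, so that positive values are higher in SS. A probe set is called past the fold when the difference is 1 or more in size and both SS arrays lie on the same side of both LD arrays. This is a description with no test. A limma fit over the 12 group values gave a standard error (SE) and an adjusted p. Its spread comes from LD of different genotypes taken as 1 cell, and each muscle is a single value assumed to vary like them.

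Past the fold were 338 of 5399 probe sets (6.26%), 212 higher in SS (3.93%) and 126 higher in LD (2.33%). Among the 4479 that reached 200 in both muscles, 96 were higher in SS and 74 in LD; those that reached it in 1 muscle tended to differ by how they were chosen. A gene with LD signals under 200 in what follows entered through SS only, and the reverse. By gene, with the brightest probe set for each, 113 of 3357 were higher in SS (3.37%) and 70 in LD (2.09%). The median difference of all probe sets was −0.01, with quartiles of −0.28 and 0.28. The call just inside the threshold stood at 1.002.

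By limma, 129 of 15664 probe sets tested over the whole array passed an adjusted p of 0.05 (0.824%), 76 higher in SS (0.485%) and 53 in LD (0.338%), out of 1952 at an unadjusted p under 0.05. Of the 112 among the 5399 (2.07%), 109 were also past the fold. With LD of CC, NC and NN as one cell, 463 passed (223 higher in SS, 240 in LD), and without the intensity trend none did. Leaving out 1 array gave 72 to 283. The arrays that moved the count by more than 1.5 times were LD NC T0 replicate 1 (72), LD NC T12 replicate 2 (79), LD CC T12 replicate 1 (85), SS NN replicates 1 and 2 (231 and 236) and LD NN T12 replicates 1 and 2 (232 and 283).

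**Figure D1:**
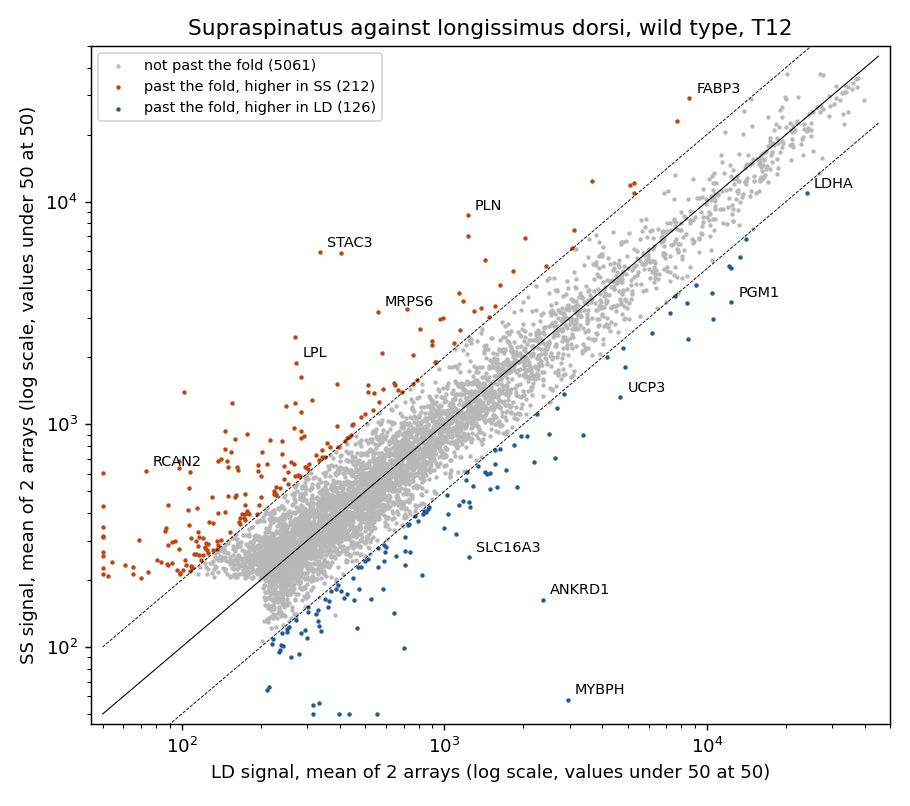
Mean signal in LD (horizontal, log scale) against SS (vertical, log scale) for the 5399 probe sets, with values under 50 drawn at 50, the solid line at equality and dashed lines at 2-fold. The 212 orange points are past the fold and higher in SS, the 126 blue ones higher in LD; MYBPH lies far to the lower right and STAC3 to the upper left.

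The largest difference toward SS was in STAC3, an adaptor protein that couples the voltage sensor of the muscle membrane to calcium release. Its signals were 5604.6 and 6160.8 on the SS arrays and 461.9 and 355.9 on the LD arrays. SS was 14.5-fold higher, a log2 difference of 3.86 ± 0.22 (SE, limma adjusted p = 0.000128). The other probe sets of STAC3 gave 4.14 and 3.18, with limma adjusted p of 0.000128 and 0.000344. SS of CN lambs was as high, at 4960.7 and 5719.3, while all 12 remaining T12 arrays (SM, ST and LD of 4 genotypes) lay between 355.9 and 621.5. High STAC3 therefore marked the SS arrays of both genotypes and no other muscle measured.

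Next came the gene that the platform annotation lists only as LOC513055, with 1348.5 and 1438.6 in SS and 88.1 and 117.5 in LD (3.78 ± 0.36, limma adjusted p = 0.00277). RCAN2, a regulator that binds and restrains the phosphatase calcineurin, had 611.4 and 622.9 in SS against 72.7 and 73.4 in LD. Its difference was 3.08 ± 0.43 (limma adjusted p = 0.0150). In SM and ST RCAN2 stood between the muscles, at 145.0 to 212.5. LPL, lipoprotein lipase, which frees fatty acids from circulating triglyceride, had 1920 and 1858.9 in SS and 237.9 and 311.1 in LD (2.80 ± 0.30, limma adjusted p = 0.00454). LPL followed the order SS, SM, ST, LD, with 672.6 and 677.0 in SM and 557.2 and 468.4 in ST.

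MRPS6, a protein of the small mitochondrial ribosome subunit, had 3255.4 and 3160 in SS against 512.4 and 606 in LD (2.53 ± 0.27, limma adjusted p = 0.00454). Like STAC3, MRPS6 was high in SS only, since SM and ST arrays lay between 463.6 and 816.8. Also past both thresholds were TMEM120A, a multi-pass membrane protein (2.52 ± 0.31), the nuclear exportin XPO4 (2.43 ± 0.29), the secreted glycoprotein LGI1 (2.40 ± 0.32) and ACSS1, the mitochondrial enzyme that activates acetate (2.36 ± 0.41). EPHX2, soluble epoxide hydrolase, stood at 2.28 ± 0.34, the mitochondrial nucleoside diphosphate kinase NME4 at 2.04 ± 0.35 and the lysosomal membrane protein LAPTM4B at 1.98 ± 0.32. The limma adjusted p of these 7 genes lay between 0.00775 and 0.0361. The phosphatase PTPN3 (1.98 ± 0.44, adjusted p = 0.087) and the fat-cell hormone ADIPOQ (1.98 ± 0.46, adjusted p = 0.104) were past the fold and did not pass limma. In 24 fits with 1 array left out, ACSS1 kept its call in 19, EPHX2 in 23, and NME4 and LAPTM4B in 22 each.

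METTL21E, a lysine methyltransferase of muscle, had 657.7 and 718.3 in SS and 168.1 and 131.4 in LD (2.21 ± 0.37, limma adjusted p = 0.0323). In CN lambs the same comparison gave 0.16, since LD stood at 899.9 and 1094.5 there. ST of NN stood near SS, at 602.4 and 540.7, and SM near LD, at 239.8 and 214.1.

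For some genes the LD signal lay under 50, so only a lower bound can be given. Here and for later bounds, the limma adjusted p belongs to the fit on signals floored at 1, which gave a larger difference. For DGAT2 that difference was 6.14 in place of 3.11. DGAT2, which makes triglyceride, had 427.1 and 436.6 in SS and 6.8 and 5.5 in LD, at least 8.64-fold higher (limma adjusted p = 0.0282). The chaperone subunit PFDN6 had 288.2 and 341.2 against 13.8 and 86.6, at least 4.77-fold (adjusted p = 0.0173). BDH1, the enzyme of ketone body use, was at least 12.1-fold higher (633 and 579 against 27.1 and 34.6), and the glutathione transferase GSTK1 at least 4.24-fold (210 and 214.2 against 28.5 and 2.4). Neither passed limma (adjusted p = 0.147 and 0.529). Of the 338 probe sets past the fold, 23 had an array of the dimmer muscle under 50, 14 of them higher in SS.

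The largest difference toward LD was in MYBPH, a myosin-binding protein of the thick filament. Its signals were 60.6 and 55.7 in SS, close to the array median, and 3830.6 and 2267.2 in LD. By these signals LD was 50.7-fold higher (−5.66 ± 0.33, limma adjusted p = 0.000128), a size that is uncertain because SS may not be above background. Another probe set, with SS arrays of 50.6 and 17.5, gave −2.98 or lower. ST arrays were intermediate at 760.8 and 1310.9 and SM arrays, at 3589.0 and 4198.0, were in the LD range. SS was the lowest of the muscles measured in NN. In CN, where LD was the only other muscle, SS had 266.3 and 168.4 and LD 8581.4 and 6292.0.

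ANKRD1, a stretch-responsive protein of the sarcomere and nucleus, had 123.6 and 214.5 in SS and 2324.1 and 2424.5 in LD. LD was 14.6-fold higher (−3.87 ± 0.28, limma adjusted p = 0.000344), and another probe set gave −3.48 or lower. Unlike MYBPH, ANKRD1 separated LD from every other muscle: SM and ST arrays lay between 311.5 and 507.7, below all 8 LD arrays at T12, the lowest of which was 1402.4.

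SLC16A3, the lactate exporter of glycolytic cells, had 245.4 and 259.6 in SS against 1300.4 and 1179.6 in LD (−2.29 ± 0.40, limma adjusted p = 0.0370). Its other probe sets gave −1.97 and −2.46 or lower. The others past both thresholds were DNTTIP1, a subunit of a histone deacetylase complex (−1.91 ± 0.24), carbonic anhydrase CA14 (−1.90 ± 0.23), PFKFB3, which makes the activator of phosphofructokinase (−1.85 ± 0.26), the mitochondrial carrier UCP3 (−1.82 ± 0.32) and PGM1, which links glycogen to glycolysis (−1.81 ± 0.18). The methyltransferase SMYD2 stood at −1.69 ± 0.27, RABGGTA, a subunit of the enzyme that attaches lipid to Rab proteins, at −1.60 ± 0.29 and the phosphatase PGP at −1.59 ± 0.24. NAMPT, of NAD synthesis, was at −1.53 ± 0.26 and PLCL2 at −1.48 ± 0.26. Their limma adjusted p ranged from 0.00315 to 0.0464. In 24 fits with 1 array left out, SLC16A3 kept its call in 19, PFKFB3, UCP3 and PGP in 22 each, NAMPT in 21, PLCL2 in 17 and RABGGTA in 13. A dimmer probe set of PFKFB3 gave −0.41, so the sets of that gene disagree in size.

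CEBPD, a transcription factor of stress and fat-cell genes (937.8 and 872.8 against 2450 and 2575.1), and GPX2, a glutathione peroxidase, were past the fold and did not pass limma (adjusted p = 0.210 and 0.191). GPX2 had 156.4 and 128.4 in SS and 626.7 and 666.4 in LD of NN, but LD of CC and NC stood at only 165.6 to 345.0. Against the mean of the 3 genotypes its difference was −1.17, in place of −2.19. Bounds toward LD from dim SS signals included ARMC6, at least 4.85-fold (limma adjusted p = 0.0395). TMA16 had SS arrays of 345.3 and 42.7, and its difference was −0.43 without SS replicate 2, where it also lost its limma call (0.0173 with all arrays, 0.505 without). TRAF4, with 25 and 163.4 in SS and 214.7 and 209.6 in LD, was at −0.38 without SS replicate 1.

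**Figure D2:**
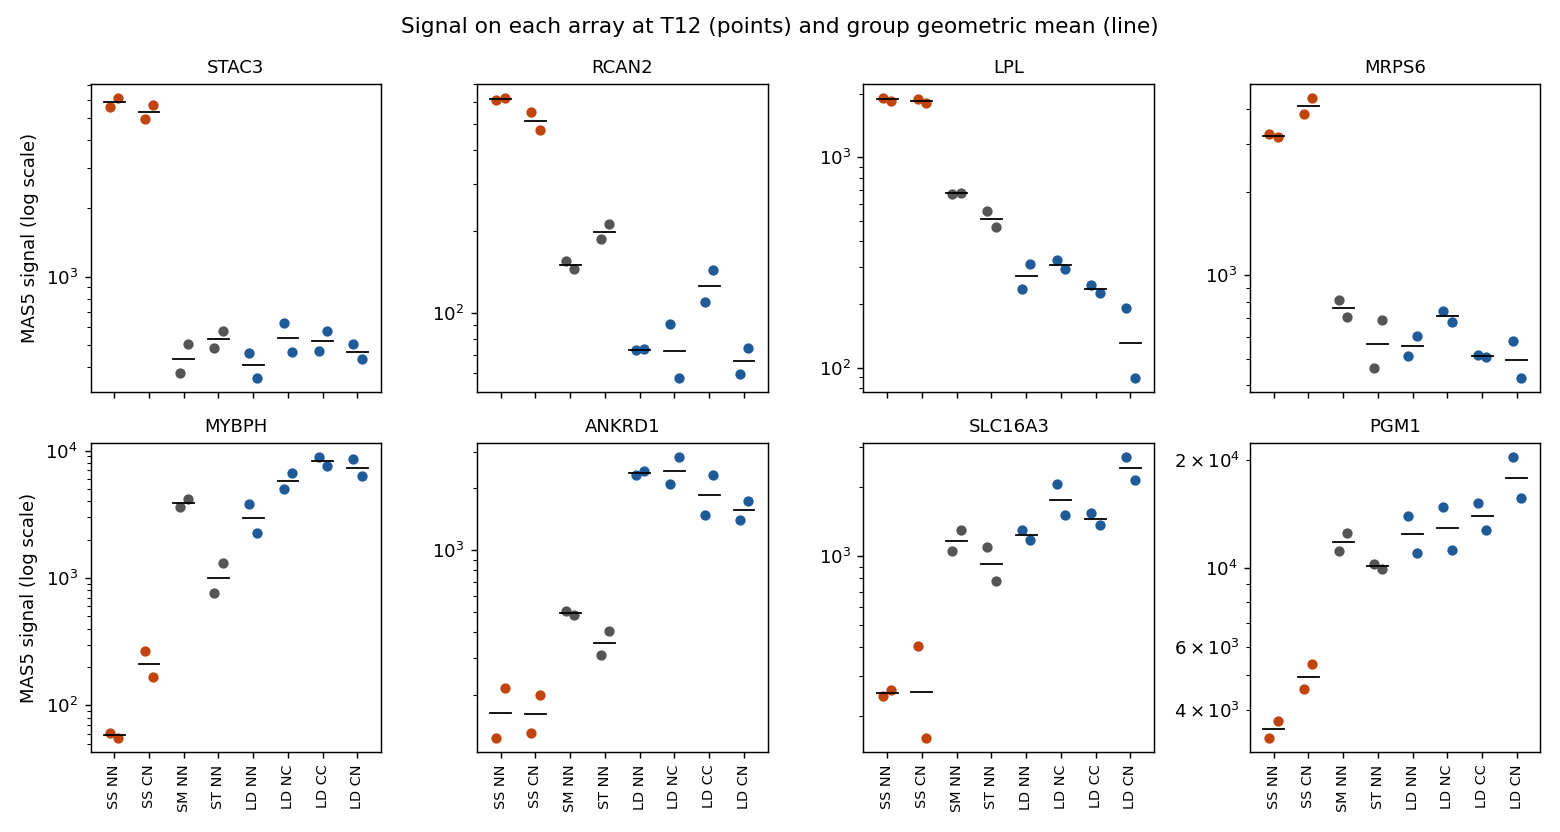
Signal on each T12 array (points, log scale) of 8 genes in SS (orange), SM and ST (grey) and LD (blue), with genotype on the horizontal axis and the geometric mean of each group as a line. STAC3 and MRPS6 are high in both SS groups only, LPL and RCAN2 are intermediate in SM and ST, and ANKRD1 is high in LD only.

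Of 16 body-position genes on the array, 8 reached a signal of 200 in a muscle, only HOXA9 and HOXA10 in both. Past the fold were 4 toward SS and 1 toward LD (3.37% and 2.09% over all genes), but HOXA4, HOXB3 and PITX1 entered through SS only and HOXC6 through LD only, so the count follows in part from the signal minimum. Over all 16 genes the median was 0.22, with MEIS1, a HOX partner, at −0.87 and HOXC5 at −0.27. HOXA9, which patterns the limb and trunk, had 1740.9 and 2526.5 in SS and 659.7 and 506.6 in LD (1.86 ± 0.22, limma adjusted p = 0.00832). HOXC6, which acts at the level of the chest, had 12.1 and 63 in SS and 517 and 365.1 in LD, at least 7.74-fold higher in LD (adjusted p = 0.000344). HOXC6 was above 200 in every T12 LD array and reached at most 190.2 on the SM arrays and 51.4 on the ST arrays.

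PITX1, best known for its part in hind-limb identity, had 241.2 and 297.1 in SS and 40.0 and 38.8 in LD, at least 5.35-fold higher, with an adjusted p of 0.321. Its SM and ST arrays lay between 3.8 and 120.2, so the 2 hind-limb muscles held less PITX1 signal than SS. LD of CC and of CN also stood above LD of NN, at 93.4 to 140.1. HOXA4 (1.20, adjusted p = 0.195) and HOXB3 (1.05, adjusted p = 0.459) were past the fold only just. Without LD replicate 2 they were 0.60 and 0.84, and HOXB3 was 0.95 without SS replicate 2.

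Slow-fibre contractile genes showed small differences toward SS. In their brightest probe sets all 11 members had a positive difference (1565 of 3357 over all genes), with a median of 0.47 (all genes, −0.03). Only MYL6B, a slow myosin light chain (405.4 and 394.4 against 142.8 and 132.9), was past the fold (all genes, 3.37%), and none passed limma. MYL6B entered through SS only. MYH7, the slow myosin heavy chain, had 36863.5 and 37597.6 in SS and 27180.6 and 26694.1 in LD (0.47 ± 0.18, limma adjusted p = 0.317). TNNC1, slow troponin C, had 37039.9 and 37615.8 against 20181.4 and 20287.1 (0.88 ± 0.21, adjusted p = 0.105). For MYH7 and TNNC1 the arrays of the muscles did not overlap, which was so at 61.7% of all 5399 probe sets.

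MYH7 and TNNC1 sit at the top of the scale, where differences were smaller, while MYL3, PDLIM1, TPM3 and MYL6B of the slow list were dimmer. Of the 97 probe sets with a mean signal of 16000 or more, 1.03% were past the fold. The share was 5.61% at 6400 to 16000, 4.71% at 1600 to 6400, 5.33% at 400 to 1600 and 7.96% under 400. The median size of a difference was 0.15 in the brightest class and 0.32 in the dimmest. The part of the signal minimum in the share under 400 was not tested. Probe sets of the same slow gene disagreed in size. ATP2A2, the slow-fibre calcium pump, was at 0.44 in its brightest set (25649 and 25881.1 against 19888 and 18089.7) and at 2.50 in one with 6762.5 and 7215.2 in SS and 1285.2 and 1178.5 in LD (limma adjusted p = 0.0124). Its remaining sets gave 1.39 and 0.89. MYOZ2, a Z disc protein of slow fibres, was at 0.97 in the brightest and at 1.76 and 1.57 in the others (adjusted p = 0.0133 and 0.0158).

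The dimmer set of TNNC1 gave a smaller difference, 0.41, with 28711.8 and 30292.3 in SS and 22887.7 and 21517.6 in LD. That of MYH7 had the opposite sign, with 1990.2 and 2349.6 in SS and 3515.9 and 3327.2 in LD (−0.66). Counting every probe set of the slow list, 5 of 20 were past the fold toward SS and 3 passed limma, against 146 and 51 of 3923 over all gene probe sets. This count was added after the values were seen.

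**Figure D3:**
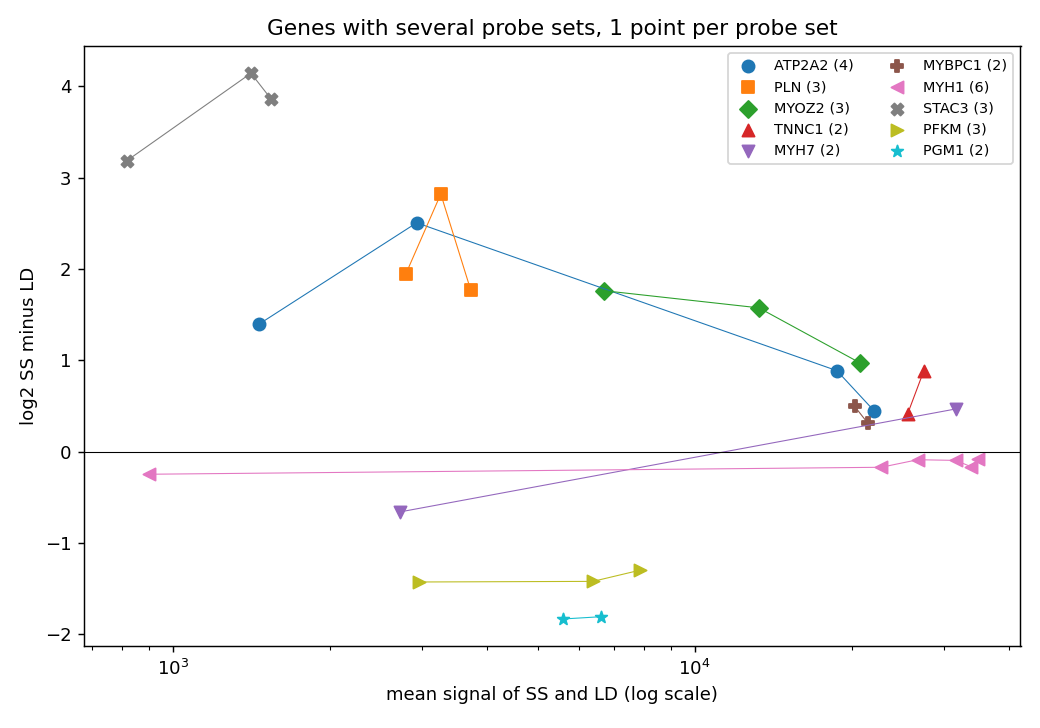
Mean signal of SS and LD (horizontal, log scale) against log2 SS minus LD for genes with several probe sets, 1 point per probe set, joined by gene. ATP2A2 ranges from 0.44 in its brightest set to 2.50 in a dimmer one, MYH7 crosses 0, and the sets of MYH1, PFKM and PGM1 give nearly the same difference at every signal.

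Fast-fibre contractile genes showed small differences toward LD. Of 12 measured, 11 were negative (1792 of 3357 over all genes) with a median of −0.35, and 2 were past the fold toward LD (all genes, 2.09%). ACTN3, the Z disc actinin of fast fibres, had 4495.6 and 3962.8 in SS and 9215.8 and 8946.2 in LD (−1.11 ± 0.17, limma adjusted p = 0.0233). After quantile normalization its difference was −0.99. MYOZ3 (819.9 and 720.4 against 1655.6 and 1473) stood at −1.02 (adjusted p = 0.068), and at −0.93 and −0.94 without SS replicate 2 and LD replicate 1. Its other probe set was at −0.62 (adjusted p = 0.213). The fast myosin heavy chain MYH1 was at −0.08, with 33741.4 and 34117.5 in SS inside the LD range of 32503.6 to 39665.1, and its 5 other probe sets were at −0.25 to −0.09. The exception was MYLK2, the kinase of the myosin light chain, at 0.99 (251.9 and 305 against 160.7 and 121.5; adjusted p = 0.561). MYLK2 entered through SS only. Over all 19 probe sets of the list the median was −0.17, with 2 past the fold toward LD and 1 passing limma. Among all gene probe sets, 89 and 38 of 3923 did so. This count was added after the values were seen.

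In the brightest probe sets of the calcium-handling list, STAC3 and PLN were past the fold among 11 genes (all genes, 3.37% toward SS). The median was −0.16. Counting all 21 probe sets, the median was 0.18, 8 were past the fold toward SS and 6 passed limma. Among all gene probe sets, 146 and 51 of 3923 did so. Those past the fold included sets of ATP2A2 at 2.50 and 1.39. This count was added after the values were seen. PLN, phospholamban, the brake on the slow calcium pump, had 7396.9 and 6369.1 in SS and 2024.5 and 2016.8 in LD (1.76 ± 0.34, limma adjusted p = 0.055). Its other probe sets stood at 2.82 and 1.94 and passed limma (adjusted p = 0.00462 and 0.0319). The fast pump ATP2A1 was at −0.28 and its inhibitor sarcolipin, SLN, at −0.16, the latter with overlapping arrays. Another probe set of ATP2A1 was at 0.04, also with overlapping arrays (17587.2 and 17837.6 in SS, 20471.4 and 14505.1 in LD). The membrane calcium sensor STIM1 (−0.38), the channel ORAI1 (−0.50) and the junction protein JPH1 (−0.16) did not pass limma.

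Glycolysis and glycogen was the list with the most genes past the fold. Of 21 measured, 20 were negative, 10 were past the fold toward LD, and 8 passed limma, against 2.09% and 0.894% of all genes. The median was −0.998. From glycogen downward, PGM1 had 3346.2 and 3737.2 in SS and 13950.8 and 10988.6 in LD. GPI, which follows it, had 5463.8 and 5867.8 against 13908.3 and 12862.2 (−1.24 ± 0.20, limma adjusted p = 0.0254). The muscle phosphofructokinase PFKM, the main control point of the pathway, had 5043.5 and 4992.7 against 12350 and 12322.3 (−1.30 ± 0.21, adjusted p = 0.0282), and its other probe sets stood at −1.42 and −1.43. In each of these the LD arrays were more than 2-fold above the SS arrays.

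FBP2, the muscle fructose bisphosphatase, was at −1.24 ± 0.20 (limma adjusted p = 0.0282) and PGAM2, the muscle phosphoglycerate mutase, at −0.998 ± 0.156 (adjusted p = 0.0238), just short of the fold. PGK1 (−1.27), PKM (−1.39) and PFKFB4 (−1.24) were past the fold and did not pass limma (adjusted p = 0.269, 0.055 and 0.520). PFKFB4 was at −0.81 without LD replicate 1. The smallest differences were those of PPP1R3C (−0.17) and ALDOA (−0.27).

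The lactate dehydrogenase subunits differed in opposite directions. LDHA, the subunit of fast muscle, had 11496.9 and 10348.5 in SS and 25951.6 and 22186 in LD (−1.14 ± 0.16, limma adjusted p = 0.0152). Its other, much dimmer probe sets gave −0.96 (adjusted p = 0.104) and −0.34 (adjusted p = 0.713, arrays overlapping). LDHB, the subunit of heart and slow muscle, had 3716.1 and 4074.3 in SS and 1092.7 and 1179.9 in LD (1.78 ± 0.37, adjusted p = 0.067). LDHB was the only member of the list that was higher in SS, and SM (1824.4 and 1733.8) and ST (1326.3 and 1421.9) lay between SS and LD.

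Genes of fatty acid uptake and oxidation were higher in SS as a group of unequal parts. Of 26 measured, 21 were positive, 7 were past the fold toward SS (all genes, 3.37%) and 5 passed limma in that direction (1.04%), with a median of 0.53. ACSS1 and BDH1 entered through SS only. Besides BDH1, LPL and ACSS1, FABP3, the muscle fatty acid binding protein, had 26803.9 and 31817.5 in SS and 8946.3 and 8204.6 in LD (1.77 ± 0.19, limma adjusted p = 0.00395). The fatty acid transporter CD36 had 6931.8 and 7998 against 3254.7 and 2971.8 (1.26 ± 0.24, adjusted p = 0.0495). CD36 kept its call in 4 of 24 fits with 1 array left out. ACAT1, of ketone body use, had 12151.1 and 12084 against 4843.1 and 5725.6 (1.20 ± 0.17, adjusted p = 0.0150).

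PLIN5, which coats lipid droplets in oxidative cells, stood at 1.20 (limma adjusted p = 0.076). CPT1B was just short of the fold. Enzymes of the oxidation itself were also short of it, with HADHB at 0.90, DECR1 at 0.85, ACADVL at 0.62, HADHA at 0.43, ACADM at 0.04 and HADH at −0.03. UCP3, with 1355.2 and 1287.9 in SS and 5188.3 and 4205 in LD, was the member past the fold toward LD.

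Mitochondrial enzymes downstream of these were mostly slightly lower in SS. Over all 3357 genes, 1792 were negative, with a median of −0.03, and 2.09% were past the fold toward LD. Of 24 genes of the TCA cycle and pyruvate entry, 19 were negative (median −0.33), and none was past the fold or passed limma. Of 71 genes of oxidative phosphorylation, 65 were negative, with a median of −0.28, and NDUFA3, a subunit of complex I, was past the fold (−1.12 ± 0.19, limma adjusted p = 0.0330). NDUFA3 was at −0.95 without LD replicate 1. The oxygen store myoglobin, MB, was at −0.15, and PPARGC1A, the coactivator of mitochondrial genes, at −0.57. SUCLG2 (0.80) and IDH2 (0.64) had the largest positive values in the TCA list.

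**Figure D4:**
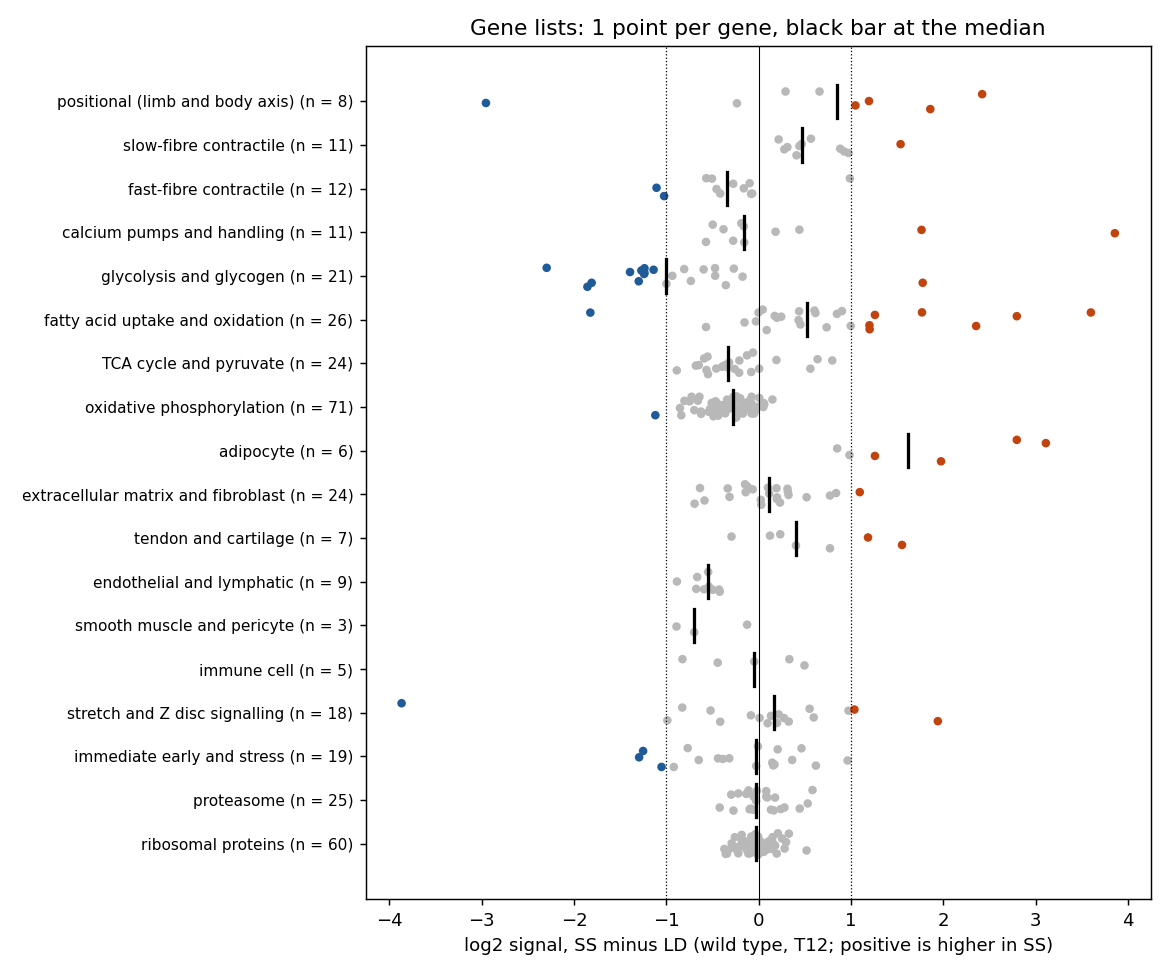
Log2 SS minus LD (horizontal) of each measured gene by list, 1 point per gene, with a black bar at the median, orange points past the fold toward SS, blue toward LD and dotted lines at −1 and 1. The glycolysis bar stands at −0.998, fatty acid uptake and oxidation at 0.53 and oxidative phosphorylation at −0.28.

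Fat-cell markers gave differences of either sign. Of 12 on the array, 6 reached a signal of 200 in a muscle and were positive, 4 of them past the fold toward SS (ADIPOQ, LPL, CD36 and DGAT2; all genes, 3.37%) and 3 passing limma (LPL, CD36 and DGAT2). ADIPOQ, FABP4 and DGAT2 entered through SS only. Below the minimum, CFD, the adipsin of fat cells, had 174.3 and 29.5 in SS and 288.5 and 190.7 in LD (adjusted p = 0.055), SCD was at 0.06 and CIDEC at 0.05, and LEP and THRSP were under 50 on all 4 arrays. Over the 12 markers the median was 0.60 and the summed signal was 11250.3 and 11983.3 in SS and 4538.4 and 4571.2 in LD, most of it from CD36 and LPL. LPL and CD36 are also made by muscle fibres and stand in the fatty acid list too. The part of fat cells in the fatty acid results was not tested.

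Of 17 endothelial genes on the array, 9 reached a signal of 200, all negative, with a median of −0.55, none past the fold and none passing limma. PECAM1, of endothelial junctions, had 1039.4 and 1116.9 in SS and 1594.3 and 1551.9 in LD. Over all 17 the median was −0.43, with 12 negative and 4 positive, among them AQP1, a water channel (294.4 and 174.4 against 74.2 and 110.6; 1.32, adjusted p = 0.215), and LYVE1 of lymphatic vessels (0.52). The smooth muscle genes TAGLN (−0.89), ACTA2 (−0.70) and MYH11 (−0.12) did not pass limma, and MYH11 changed sign between settings. Over all 7 smooth muscle genes on the array the median was −0.19, with 5 negative and 2 positive. Collagens of the matrix list with a signal of 200 ranged from COL4A1 of basement membranes at −0.59 to COL12A1 at 0.84, with COL3A1 at 0.20 and COL1A2 at 0.32. The matrix list of 24 genes had a median of 0.11, which changed sign between settings. TNXB was its member past the fold, at 1.10 (all genes, 3.37% toward SS). TNMD (1.18) and COL11A1 (1.55) were past the fold among 7 genes of tendon and cartilage (all genes, 3.37%). Both entered through SS only and stood at 0.54 and 0.82 against LD of 3 genotypes. Red blood cell and satellite cell lists had no member at 200, and the immune list had 5, none past the fold.

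None of 6 embryonic and neonatal muscle genes was past the fold, the highest being the neonatal myosin MYH8 at 0.44.

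Among genes of stretch and Z disc signalling, FHL2, a LIM protein (352.1 and 312.8 against 63.0 and 118.6), was at 1.94 (limma adjusted p = 0.354). The chaperone partner BAG3 was at 1.04, and at 0.83 and 0.99 without SS replicate 1 and LD replicate 2. In their brightest probe sets, FHL2, BAG3 and ANKRD1 were the members past the fold among 18 (all genes, 3.37% toward SS and 2.09% toward LD). Of all 25 probe sets of the list, 5 were past the fold toward SS and 3 toward LD (all gene probe sets, 146 and 89 of 3923). Those toward SS included sets of MYOZ2 at 1.76 and 1.57. In each direction 2 sets of the list passed limma (all gene probe sets, 51 and 38 of 3923). In the calcineurin list, RCAN2 and MEF2C, a transcription factor of slow-fibre genes (1993.1 and 2118.2 against 932.4 and 617.1; 1.44, adjusted p = 0.175), were higher, and the nuclear receptor NR4A1 was at −1.25 (adjusted p = 0.240). The catalytic subunit of calcineurin, PPP3CA, was at −0.15. In their brightest probe sets, ATF3 (−1.29) and KLF4 (−1.05) were the other immediate early genes past the fold, among 19 measured (all genes, 2.09% toward LD). ATF3 and NR4A1 entered through LD only, so their calls follow in part from the signal minimum. ATF3 was at −0.72 without SS replicate 1, and KLF4 at −0.48 against LD of 3 genotypes and at −0.95 without SS or LD replicate 2. Of all 26 probe sets of the immediate early and stress list, 2 were past the fold toward SS and 3 toward LD (all gene probe sets, 146 and 89 of 3923). The 1 set that passed limma was higher in SS (all gene probe sets, 51 of 3923).

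The growth list held METTL21E and, toward LD, NMRK2 of NAD synthesis (−1.19, adjusted p = 0.064), and the growth inhibitor MSTN was at −0.34. At the callipyge locus, DLK1 was at 0.22 and the brightest probe set of MEG3 at −0.64, neither passing limma. Other MEG3 sets were at 0.00 and 0.85, and the brightest was at −2.16 against LD of 3 genotypes. None of 25 proteasome genes and none of 60 ribosomal protein genes was past the fold.

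CN lambs gave the same comparison on 4 separate arrays. Of the 212 probe sets higher in SS of NN, 210 were also higher in SS of CN (99.1%, against 50.2% of all 5399) and 162 were past the fold there. Of the 126 higher in LD, 122 had the same sign in CN (96.8%, against 49.8%), and 67 were past the fold. How many of all 5399 were past the fold in CN was not counted, so 162 and 67 stand without that share. By limma, 289 of the 5399 passed in CN and 112 in NN. The median of the first set was 1.37 in NN and 1.55 in CN, and of the second −1.26 and −1.11. STAC3 was at 3.51 in CN, LPL at 3.82, MYBPH at −5.12, ANKRD1 at −3.28 and PGM1 at −1.85.

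Slow-fibre genes had a larger median in CN, 1.56 in place of 0.47, with MYL3 at 2.20 against 0.22 and MYH7 at 1.54 against 0.47. Glycolysis genes had a median of −0.998 in NN and −1.004 in CN. No probe set passed limma for a difference between the comparison in NN and in CN (763 at an unadjusted p under 0.05; the smallest adjusted p among the 5399 was 0.713). That holds for METTL21E (2.21 and 0.16), GPX2 (−2.19 and 0.12) and PLCL2 (−1.48 and −2.95) too.

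**Figure D5:**
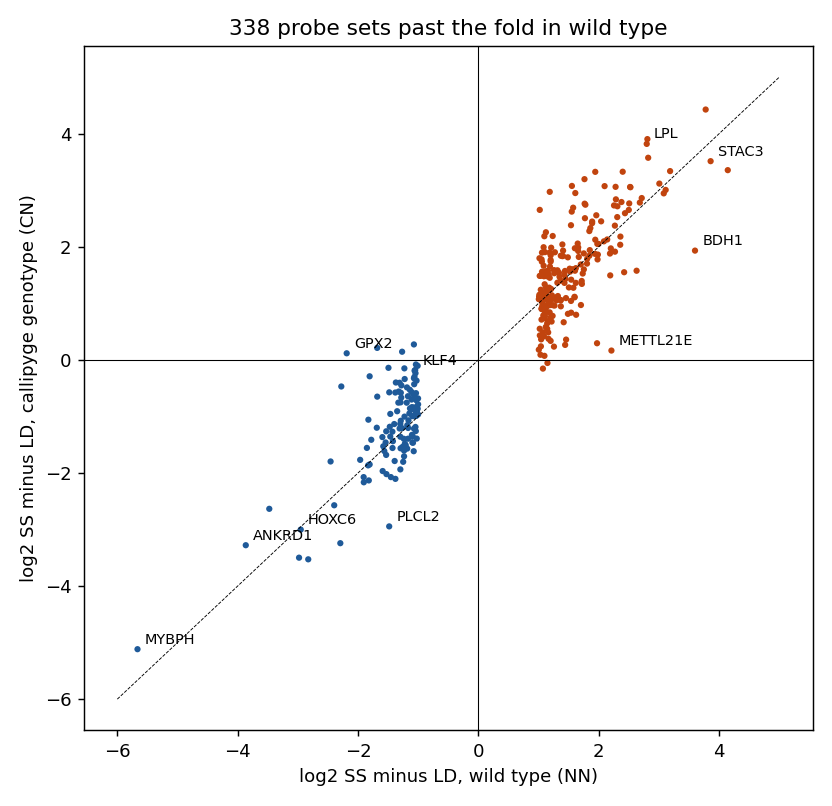
Log2 SS minus LD in wild type (horizontal) against the same difference in CN (vertical) for the 338 probe sets past the fold in wild type, with the dashed line at equality. Nearly all keep their sign; METTL21E and GPX2 lie near 0 in CN.

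LD of other genotypes was also set against SS of NN. Both SS arrays lay outside all 6 LD arrays of CC, NC and NN at 316 of the 338 probe sets, against 36.8% of all 5399. The 338 were chosen on 2 of these 6 arrays, so much of that share is built in. The genes most like STAC3 over the 12 group values, by Pearson's r, were the mitochondrial ADP/ATP carrier SLC25A5 (0.973), FBXO34 (0.968), LOC513055 (0.961), the phosphatase PTP4A2 (0.955) and MRPS6 (0.951). Those most like MYBPH were GPI (0.944), SLC16A3 (0.937), adenylate kinase AK1 (0.932), RABAC1 (0.928) and MRPL42 (0.926). The groups share muscles and genotypes, so these values are a description.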

How the data were processed

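Intensity values per probe set, made by the authors with MAS5 (version not given in the sources used here), are named in the submitters' processing notes. RNA was extracted with Trizol and 5 µg was labelled, per the labels' protocols. On every array the 2% trimmed mean was near 200, so deposited signals were used without further scaling; 112 control probe sets were left out. Gene symbols came from the platform annotation of 2016: of the 5399 probe sets, 3923 have 1 symbol, 28 several and 1448 none. Of 3357 symbols, 3207 occur in RefSeq's sheep table (ARS-UI_Ramb_v3.0). No genome was used, so no coordinates are given.

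Log2 values of technical arrays were averaged. limma 3.58.1 in R 4.3.3 (eBayes with trend on signal; two-sided p, adjusted by Benjamini-Hochberg) was fitted to 12 group values, floored at 1, for 15664 probe sets above the median log2 signal in at least 1 group. LD of CC and NC at T12 formed one cell, LD of CC, NC and NN at T0 another, which leaves 3 residual degrees of freedom (prior 6.37). p-values measure the spread between group values and may be too small for animals.

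Named were the 15 largest differences each way with all signals at 50 or more, 5 bounds each way (fewer toward LD), list members past the fold, and the positional, slow, fast and calcium lists. A gene is read by its brightest probe set. The 26 lists hold 669 genes, 387 measured. Members and lists were chosen with earlier results of these data known. Same-numbered arrays share only a number.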

Additional observations from a re-analysis of the deposited data

How the results depend on the processing

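The count past the fold was 338 and became 521 and 219 with a signal minimum of 100 and 400, 571 with none, 1048 at 1.5-fold and 50 at 4-fold (39 higher in SS). Floors, quantile normalization (348, of which 327 shared), and LD of 3 genotypes (326, of which 258 shared) stayed within 1.5 times, as did leaving out 1 array (395 to 443). Pairing same-numbered arrays as a replicate block left 338 and the limma count at 129. The limma count was 463 with LD of CC, NC and NN as one cell and 0 without the trend (1711 at an unadjusted p under 0.05), and 72 to 283 without 1 array.

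Of 69 named genes past the fold, 55 stayed past it in every setting, and no called value changed sign. Medians of 10 gene lists near 0 did, among them the matrix, immune, growth, proteasome and ribosomal lists. Of the 41 named limma calls, 21 held in all 24 fits without 1 array, 40 with 3 genotypes as one cell and none without the trend, where the lowest adjusted p was 0.0737. The calls lost most often were CD36, RABGGTA, PLCL2 and ARMC6; METTL21E was lost without LD CC T0 replicate 1 and LD NN T0 replicate 1, EPHX2 and FBP2 without LD NC T12 replicate 2, and DGAT2 without LD CC T0 replicate 1 and LD NC T0 replicate 1. Most calls were lost without LD NC T0 replicate 1 (12), LD NC T12 replicate 2 (10), LD CC T0 replicates 1 and 2 (9 each) and LD CC T12 replicate 1 (7). With 2 technical arrays a muscle, differences between animals could not be measured, and signals near 50 give only bounds.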

Other observations

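Genes outside the lists, chosen after their values were seen, also differed. The ADP/ATP carrier SLC25A5 had 865.6 and 822.1 in SS and 230.1 and 252.9 in LD (1.81, limma adjusted p = 0.0157), and the tyrosine phosphatase PTP4A2 2412.9 and 2944.1 against 751.5 and 873.2 (1.72, adjusted p = 0.00934). The actin-binding LIM protein ABLIM1 was at 1.96 (adjusted p = 0.0124), and 2.56 in CN. The membrane channels AQP4, for water (1.21, adjusted p = 0.0328), and KCNMA1, for potassium (1.60, adjusted p = 0.0141), were higher in SS, as was the small GTPase RRAD (4890 and 4842.6 against 1869.1 and 1779.1; 1.42, adjusted p = 0.0458). The phosphatase subunit PPP2CB was at 1.12 (adjusted p = 0.0330).

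Toward LD, the adenylate kinase AK1 had 6554.3 and 6981.5 in SS and 14830.9 and 13431.7 in LD (−1.06, limma adjusted p = 0.0206), and GAMT, of creatine synthesis, 860 and 904.6 against 2344.5 and 1821.9 (−1.23, adjusted p = 0.0370). Creatine kinase CKM was at −0.18, and another adenylate kinase, AK3, was at 1.52 (adjusted p = 0.0627). DYNLL1, a dynein light chain, was at −1.26 (adjusted p = 0.0338), and PPP1R1A, an inhibitor of protein phosphatase, at −1.01 (adjusted p = 0.0370). TGFBR2, a receptor of the TGF-beta family, was at −1.07 in NN and 0.27 in CN, and the peroxisomal enzyme PHYH at 1.02 and 2.65; neither difference between genotypes passed limma (adjusted p = 0.713 and 0.821).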
